A study of Mus musculus with 12 samples.

Results

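The extracellular matrix of the heart is a network of collagen and elastic fibres that is laid down, cross-linked and degraded continuously. Matrix metalloproteinases (MMPs) are zinc-dependent proteases that cut matrix proteins, and the tissue inhibitors of metalloproteinases (TIMPs) bind their active sites. Lysyl oxidase (LOX) and lysyl oxidase-like 1 (LOXL1) oxidise lysine residues of collagen and elastin, the step that starts covalent cross-linking, and diabetic cardiomyopathy is commonly accompanied by changes in this matrix. The data were examined for mRNAs of 10 such genes, taken by gene symbol: the proteases Mmp2, Mmp9, Mmp14 and Mmp15, the inhibitors Timp1, Timp2, Timp3 and Timp4, and the cross-linking enzymes Lox and Loxl1. The array carried 17 probes for these 10 genes, out of 56605 probes in all, with each probe on 1 spot. Of the 17 probes, 14 probes of 9 genes passed the filter on dim signal, and 30859 probes passed it over the whole array. Both Mmp9 probes and 1 of the 2 Lox probes did not pass.

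Heart muscle was taken from male C57BL6/J mice labelled as 5 months old, with 1 mouse per array and 3 arrays in each of 4 groups. By the study's methods, mice were 6 to 7 weeks old at the start and received vehicle where they did not receive pargyline. Control mice (C) received neither streptozotocin nor pargyline. Diabetic mice (D) had been given streptozotocin, a toxin of pancreatic β-cells, at 50 mg/kg/day on 5 days, and were counted as diabetic from a blood glucose of 17 mM. Control mice with pargyline (C + P) and diabetic mice with pargyline (D + P) received the monoamine oxidase inhibitor pargyline at 50 mg/kg/day for 12 weeks. Streptozotocin-treated mice model diabetes caused by toxic loss of insulin, and pargyline acts in every tissue. All C and D arrays lay on slide 1 and all C + P and D + P arrays on slide 2, each scanned at its own time, so an effect of pargyline and an effect of the slide or scan cannot be told apart. Within each slide the non-diabetic arrays lay in row 1 and the diabetic arrays in row 2, so diabetes and slide row cannot be told apart either. Between 23556 and 29231 spots per array were well above background, and Feature Extraction's median coefficient of variation of background-subtracted signal over non-control probes printed more than once was lowest at 6.03% on array C + P 2 and highest at 35.3% on array D 1. All 7 cardiomyocyte markers were well above background on all 12 arrays, while of 4 atrial markers 1 (Myl4) was well above background on all 12 and 2 on none, and of 5 adipocyte markers 1 (Lep) on all 12 and 3 on none.

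The probes are the sequences from which each level was read. Those of 5 genes are shown: Timp1 and Loxl1, with the lowest unadjusted p-values of single-probe genes, the weaker Timp2 probe, whose span in the genome is far longer than the probe, and Mmp14 and Mmp9, which were at or near background. They are written 5′ to 3′ as the scanner files give them, all in lower case since no part is marked.
Timp1: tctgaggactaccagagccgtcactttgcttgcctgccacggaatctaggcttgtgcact
Loxl1: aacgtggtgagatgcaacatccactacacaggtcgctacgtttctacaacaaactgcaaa
Timp2: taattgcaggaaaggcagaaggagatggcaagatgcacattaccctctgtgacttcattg
Mmp14: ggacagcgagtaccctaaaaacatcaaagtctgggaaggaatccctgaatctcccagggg
Mmp9: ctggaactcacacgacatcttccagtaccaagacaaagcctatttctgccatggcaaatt
In the mm9 coordinates of the files, the Timp1 probe lies at chrX:20451675-20451733 on the plus strand and the Loxl1 probe at chr9:58138570-58138629 on the minus strand. The Mmp14 probe lies at chr14:55058775-55058834 on the plus strand. The Timp2 probe, 60 bases long, is placed at chr11:118171964-118178741 on the minus strand, a span of 6778 bases. The Mmp9 probe is placed at chr2:164779091-164780300 on the plus strand, a span of 1210 bases. A probe whose span exceeds its length joins separate stretches of the genome, as a probe across a splice junction does. GC bases made up 55% of the Timp1 probe, 51.7% of the Mmp14 probe and 45% of the other three.

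No probe of the 10 genes passed an adjusted p of 0.05 in any of the 7 comparisons by limma, a linear model fitted over all tested probes. The plot of the brightest probes shows all 12 arrays, and the 3 arrays of a group often spanned as much as the distance between groups. Levels are log2 signals after quantile normalisation, so a difference of 1 is a doubling, and levels of different probes were not compared.

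**Figure D1:**
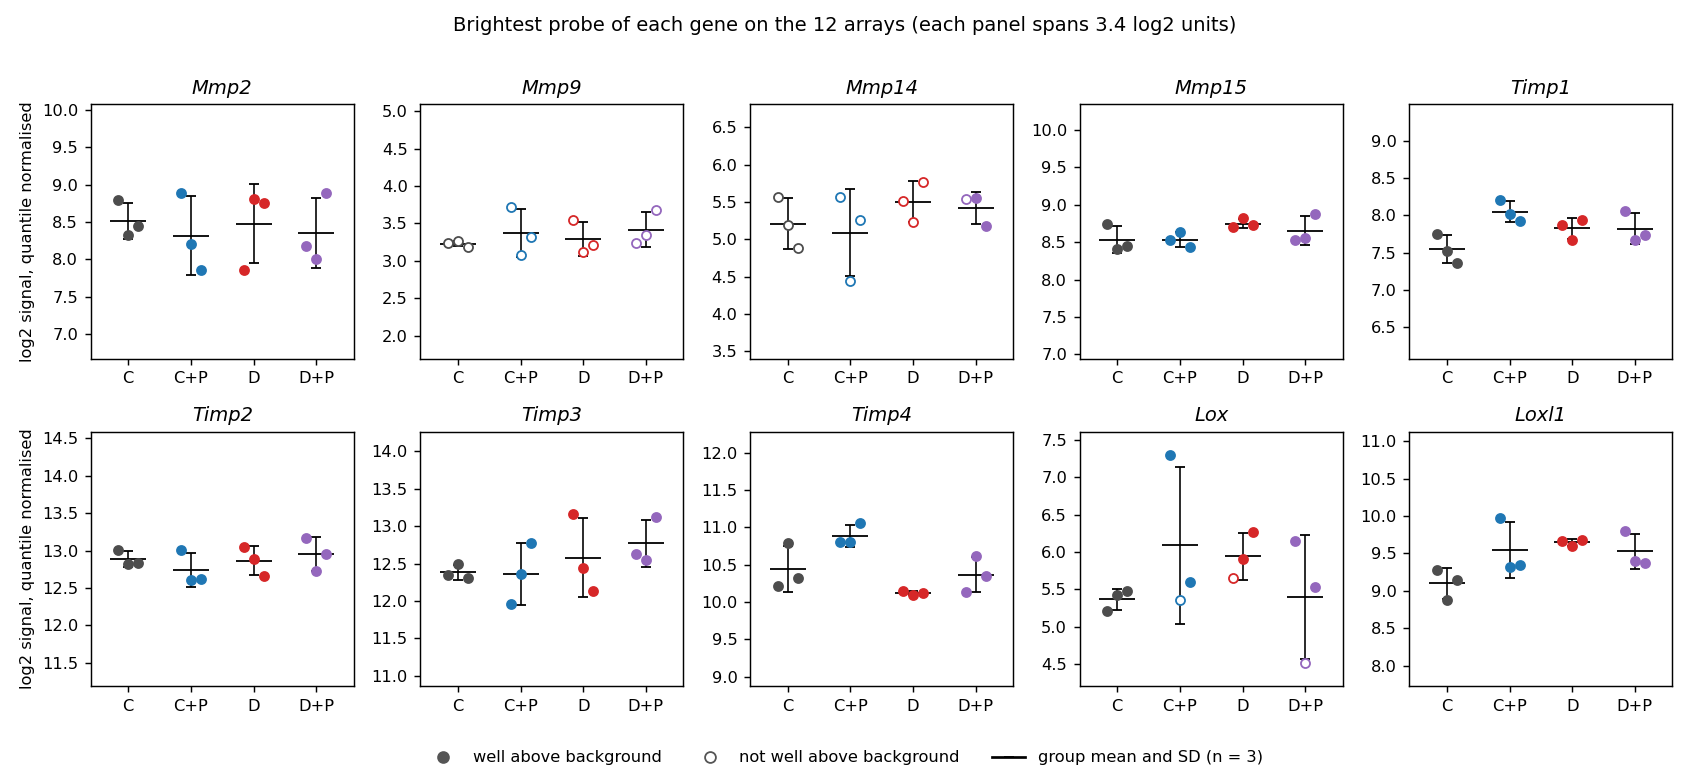
Log2 signal (y axis, quantile normalised) of the brightest probe of each of the 10 genes in C, C + P, D and D + P (x axis), with 1 point per array, open where the spot was not well above background, and the group mean with its SD (n = 3). Mmp9 is open on all 12 arrays, Mmp14 is filled on 2 D + P arrays alone, and the Loxl1 values of D, from 9.60 to 9.68, lie above those of C, from 8.87 to 9.28.

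The effect of diabetes was first tested without pargyline, in D against C. The called share over the whole array was 0.00648% (2 of 30859 probes) and none of the 14 probes was called. At an unadjusted p under 0.05 stood 1 of the 14 probes (7.14%), against 10.8% of all tested probes. The groups did not overlap for 4 of the 14 probes (28.6%), against 22.2% of all tested probes. Both shares were near or below those of the array as a whole. The probes without overlap were Loxl1, Lox, the brightest Timp4 probe and the dimmest Timp3 probe. This Timp3 probe was well above background on no D array, and Lox was close to background. The median change of the 14 probes was 0.01 on the log2 scale and that of all tested probes was -0.01.

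Loxl1, which cross-links elastin in particular, had the smallest p in D against C. Its level was 9.28, 8.87 and 9.14 in C and 9.67, 9.60 and 9.68 in D, so every D array lay above every C array. The change was 0.55 ± 0.21 (SE), which is 1.46-fold with a 95% interval from 1.06 to 2.02, at an unadjusted p of 0.0242 and an adjusted p of 0.410 by limma. In the pargyline groups Loxl1 was 9.98, 9.32 and 9.35 in C + P and 9.80, 9.40 and 9.38 in D + P, so these groups overlapped almost completely. The change in D + P against C + P was -0.02 ± 0.21, with an interval from -0.48 to 0.44. In the order of the group means, C was lowest at 9.10 ± 0.21 (SD, n = 3), and D + P (9.53 ± 0.24), C + P (9.55 ± 0.37) and D (9.65 ± 0.05) followed with overlapping values. The difference between the effect of diabetes with and without pargyline was -0.57 ± 0.30 (adjusted p = 0.730 by limma).

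Lox, the founding member of the lysyl oxidase family, was close to background. On 9 of 12 arrays the brighter probe was well above background, and the other probe on none. The brighter probe measured 5.21, 5.42 and 5.47 in C, 5.65, 5.91 and 6.27 in D, 7.30, 5.36 and 5.61 in C + P, and 6.15, 4.51 and 5.53 in D + P. The D values lay above the C values, 1 of the 3 being not well above background, while the C + P mean rested on array C + P 1. The change in D against C was 0.57 ± 0.50 (adjusted p = 0.677 by limma), with an interval from -0.54 to 1.69 that includes a tripling.

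Diabetes under pargyline was tested in D + P against C + P. Here 0.0454% of all probes were called (14 of 30859) and none of the 14 probes of these genes. An unadjusted p under 0.05 was found for 1 of the 14 probes (7.14%), against 7.46% of all tested probes, and 1 probe did not overlap between the groups, against 13.9%. That probe was probe 1 of Timp4 in both counts. Averaged over both pargyline states, diabetes gave 0.107% called probes over the array (33 of 30859), none of them among the 14. An unadjusted p under 0.05 stood for 1 of the 14 probes, again probe 1 of Timp4, against 11.4% of all tested probes.

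Timp4 is the inhibitor whose mRNA is most typical of the heart, and it was read by 3 probes, numbered here by brightness. Probe 1 lay at chr6:115195840-115195899 in mm9 and measured 10.21, 10.79 and 10.33 in C and 10.15, 10.10 and 10.12 in D. In the pargyline groups it measured 10.80, 10.81 and 11.05 in C + P and 10.14, 10.62 and 10.35 in D + P. Within each slide the diabetic arrays lay below the non-diabetic arrays without overlap, though D 1 was only 0.06 log2 units below C 1. The averaged change with diabetes was -0.42 ± 0.13, which is 0.748-fold with an interval from 0.610 to 0.917, at an unadjusted p of 0.00963 and an adjusted p of 0.288 by limma. It was -0.32 ± 0.19 without pargyline and -0.52 ± 0.19 with it, and these differed by -0.20 ± 0.27 (adjusted p = 0.878 by limma).

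Probe 2 of Timp4, at chr6:115196120-115196179, had a log2 change of -0.15 ± 0.17 with diabetes on average, with an interval from -0.53 to 0.23. Probe 3, at chr6:115196869-115196928, is assigned in the files to a cDNA clone and not to the RefSeq transcript of the other 2 probes. It measured 8.22, 8.93 and 8.001 in C, 6.92, 6.57 and 6.78 in C + P, 8.39, 7.21 and 5.62 in D, and 8.02, 8.89 and 6.81 in D + P. Its 3 values in C + P were close together and below all of C, whereas those of D spread over 2.76 log2 units, with D 3 not well above background. The change of probe 3 with diabetes was -1.31 ± 0.65 without pargyline and 1.15 ± 0.65 with it, or -0.08 ± 0.46 on average. With pargyline this change was opposite in sign to that of probe 1.

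**Figure D2:**
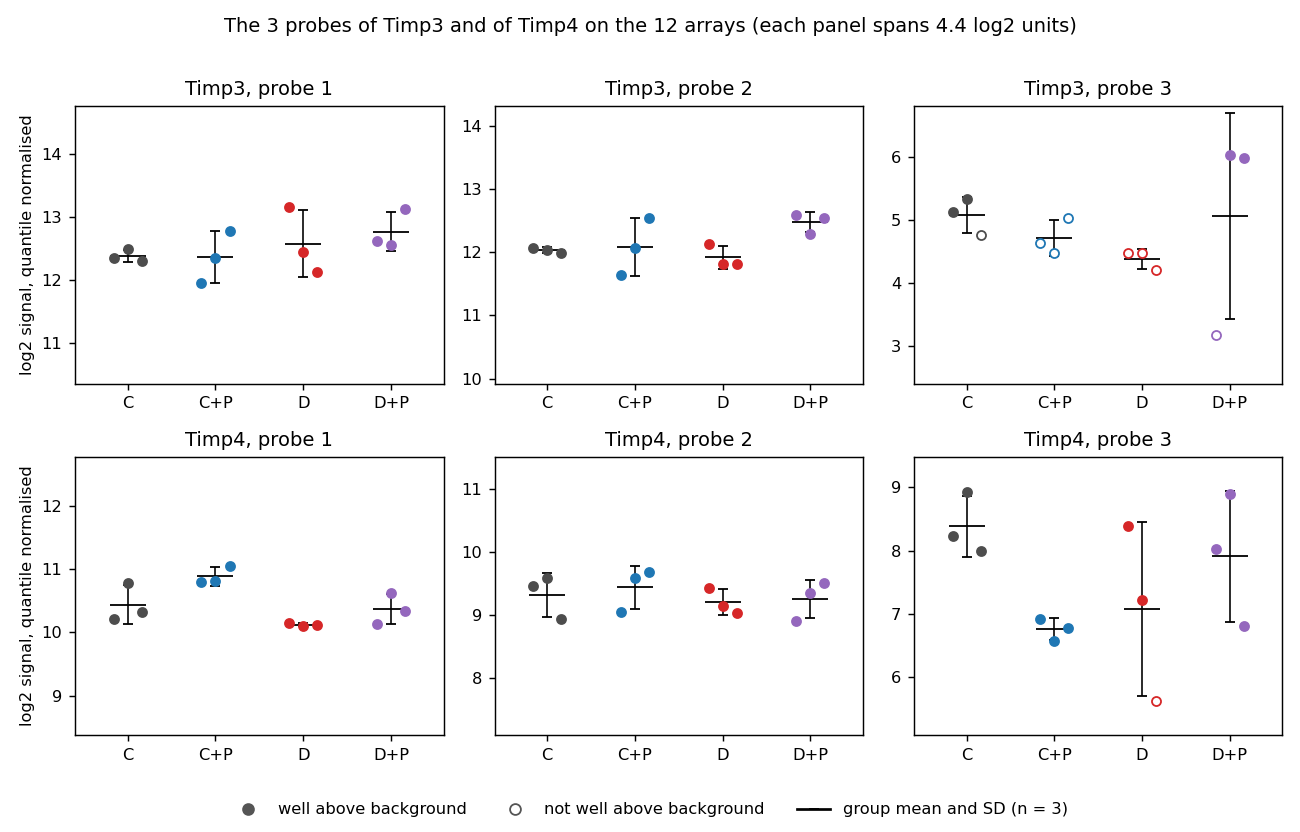
Log2 signal (y axis, quantile normalised) of the 3 probes of Timp3 and the 3 probes of Timp4 in each group (x axis), with 1 point per array, open where not well above background, and the group mean with its SD (n = 3). In C + P, probe 1 of Timp4 had its highest mean (10.89) and probe 3 its lowest (6.76).

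No tested protease probe passed the test for diabetes, and the groups overlapped on both slides. Mmp2, gelatinase A, measured 8.79, 8.32 and 8.44 in C, 7.86, 8.81 and 8.75 in D, 8.89, 8.21 and 7.86 in C + P, and 8.17, 8.001 and 8.89 in D + P. The 4 groups overlapped, with the values of C (SD 0.24) closer together than those of D (0.53), C + P (0.53) and D + P (0.47). The averaged change with diabetes was -0.004 ± 0.24 with an interval from -0.54 to 0.54, which is 0.686-fold to 1.45-fold. Mmp15, a membrane-bound metalloproteinase, had the narrowest range of the 10 genes' brightest probes, from 8.41 to 8.88 over the 12 arrays. Its averaged change was 0.17 ± 0.11, with an interval from -0.08 to 0.41.

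Mmp14, the membrane-bound activator of pro-MMP2, was well above background on 2 of 12 arrays, both in D + P. Its signal of 4.44 to 5.77 lay near the lowest signals that counted as well above background, which were 4.72 to 5.84 depending on the array. Computed differences between its groups are therefore no measure of a change in level. Mmp9, gelatinase B, a protease typical of neutrophils and macrophages, was not well above background on any array with either probe, and its measured signal of 2.99 to 3.94 gave no level that could be compared between groups. Neutrophil markers were not all at background: 2 of 7 were well above background on all 12 arrays and 2 on none. S100a8 was well above background on 9 arrays, but Retnlg and Camp on only 1 array each. The log2 of their summed linear signal, which the brightest markers (Elane and S100a9) mostly set, was 9.83 to 10.12 in C, 10.22 to 11.45 in C + P, 10.37 to 10.85 in D and 10.25 to 10.44 in D + P. Whether neutrophil content bears on any of the 10 genes was not tested.

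Timp1, an inhibitor induced in injury and inflammation, measured 7.74, 7.52 and 7.37 in C and 7.87, 7.66 and 7.94 in D. These groups overlapped, and the change of 0.28 ± 0.17 had an interval from -0.09 to 0.66 (adjusted p = 0.547 by limma). Timp2, which also takes part in MMP2 activation, had 2 probes with changes of -0.02 ± 0.18 and 0.05 ± 0.28. Its brighter probe stayed between 12.60 and 13.17 on the 12 arrays. Timp3, the inhibitor that binds to the matrix, had a change of 0.20 ± 0.29 with probe 1 and of -0.11 ± 0.22 with probe 2, with array D 1 of probe 1 (13.17) well above D 2 (12.44) and D 3 (12.13). Without array D 1, the change of probe 1 was -0.09. Array D 1 was the array with the coefficient of variation of 35.3%, and the part of this variation in the probe 1 value was not tested. Probe 3 of Timp3, assigned to another transcript, was well above background on 4 of 12 arrays.

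The balance of protease and inhibitor mRNA was compared as the difference of their log2 signals on the same array. Each gene was read by its brightest probe, and only the change between groups has a meaning. Averaged over pargyline, the change of Mmp2 minus Timp4 with diabetes was 0.42, from -1.92 ± 0.52 (SD, n = 3) in C to -1.65 ± 0.56 in D, and from -2.57 ± 0.65 in C + P to -2.01 ± 0.58 in D + P. The two-sided exact permutation test within each pargyline state gave p = 0.205, or 0.63 after Benjamini-Hochberg adjustment over 4 pairs. With the mean of all tested probes of each gene in place of the brightest, this change was 0.21. The change of Mmp14 minus Timp2 was 0.22 (exact permutation p = 0.315, adjusted 0.63), but Mmp14 was not well above background on any C, C + P or D array, so this value is no measure of a balance. The change of Mmp2 minus Timp2 was -0.10 (exact permutation p = 0.725, adjusted 0.865). For Mmp9 minus Timp1 the computed 0.03 (exact permutation p = 0.865, adjusted 0.865) rests on a protease at background and is no such measure either. The smallest p that the 400 arrangements allow is 0.005.

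The effect of pargyline in non-diabetic hearts was tested in C + P against C. None of the 14 probes was called, against 0.0324% of all probes (10 of 30859). At an unadjusted p under 0.05 stood 3 of the 14 probes (21.4%), against 4.43% of all tested probes, and these were Timp1 and probes 1 and 3 of Timp4. The groups did not overlap for 4 of the 14 probes (28.6%), against 15.3%, with Loxl1 as the fourth. Of these 3 probes, 2 belong to 1 gene and had changes of opposite sign.

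Timp1 measured 8.20, 8.02 and 7.92 in C + P, above all 3 C values given before. The change was 0.50 ± 0.17, which is 1.42-fold with an interval from 1.09 to 1.83, at an unadjusted p of 0.0133 and an adjusted p of 1.00 by limma. In D + P it measured 8.05, 7.67 and 7.74, against 7.87, 7.66 and 7.94 in D, and the change was -0.01 ± 0.17. The order of its group means was C (7.54 ± 0.19, SD, n = 3), D + P (7.82 ± 0.20), D (7.83 ± 0.14) and C + P (8.05 ± 0.14), in which D + P and D were indistinguishable and each overlapped the range of its other neighbour. The effects of pargyline with and without diabetes differed by -0.51 ± 0.24 (adjusted p = 0.713 by limma).

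Timp4 gave 3 different answers for C + P against C. The change was 0.44 ± 0.19 with probe 1 (unadjusted p = 0.0382), 0.12 ± 0.25 with probe 2 (unadjusted p = 0.641) and with probe 3 -1.63 ± 0.65 (unadjusted p = 0.0303), each with an adjusted p of 1.00 by limma. The interval of probe 1, from 0.03 to 0.86, and that of probe 3, from -3.07 to -0.19, do not overlap. A direction for Timp4 as a gene is therefore not given. Probe 3 also had the lowest interaction p of the 14 probes, with a difference of 2.46 ± 0.92 between the effects of pargyline in diabetic and in non-diabetic hearts (unadjusted p = 0.0225, adjusted p = 0.683 by limma).

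In diabetic hearts, D + P against D, none of the 14 probes was called, and neither was any of the 30859 tested probes (0%). An unadjusted p under 0.05 was found for 1 of the 14 probes (7.14%), against 13.3% of all tested probes, and 1 probe did not overlap, against 17%. Both were probe 2 of Timp3, which measured 12.13, 11.82 and 11.81 in D and 12.60, 12.30 and 12.54 in D + P. The change was 0.56 ± 0.22, or 1.47-fold with an interval from 1.06 to 2.05 (unadjusted p = 0.0268, adjusted p = 0.306 by limma). Probe 1 of Timp3, at chr10:85811696-85811755 and thus starting 345 bases before probe 2 at chr10:85812041-85812100, had a change of 0.19 ± 0.29. Its values of 13.17, 12.44 and 12.13 in D and 12.63, 12.55 and 13.13 in D + P overlapped.

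**Figure D3:**
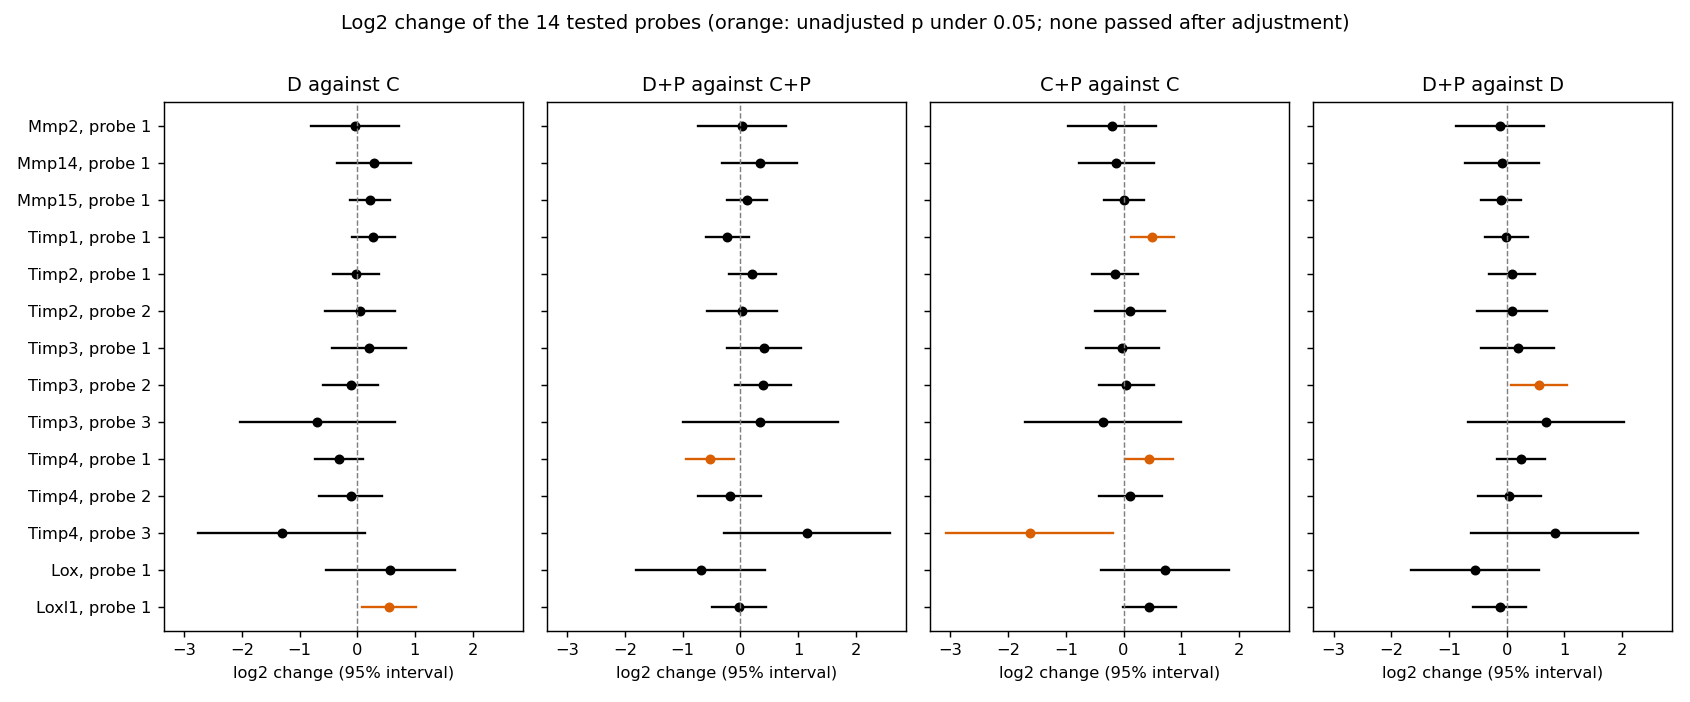
Log2 change (x axis) with its 95% interval for the 14 tested probes (y axis, probes of a gene numbered by brightness) in the 4 pairwise comparisons, in orange where the unadjusted p was under 0.05. The 6 orange values are Loxl1 in the first panel, probe 1 of Timp4 in the second, Timp1 and probes 1 and 3 of Timp4 in the third, and probe 2 of Timp3 in the fourth, and none passed after adjustment over all tested probes. The point of Mmp14 rests on signals mostly not well above background.

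Averaged over diabetes, pargyline gave 0.0551% called probes over the array (17 of 30859) and none among the 14. An unadjusted p under 0.05 was found for 1 of the 14 (probe 1 of Timp4, 0.34 ± 0.13, adjusted p = 0.429 by limma), against 10.2% of all tested probes. For the interaction of diabetes and pargyline, 0.00648% of all probes were called (2 of 30859) and none of the 14. Here too 1 of the 14 probes had an unadjusted p under 0.05, against 7.03% of all tested probes. By the methods' t-test, 0 of the 14 probes passed in any pairwise comparison after either Benjamini-Hochberg or Bonferroni adjustment.

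The other genes of matrix turnover were counted from lists, each gene by its brightest probe. No gene passed the test in any of the 7 comparisons among 7 tested of 17 other MMPs, 10 of 14 ADAMTS proteases, which cleave proteoglycans and procollagen, 11 of 12 MMP activators and other inhibitors, all 19 genes of procollagen processing, 10 of 11 genes of collagen and elastic fibre cross-linking, and all 8 genes of the TGF-beta pathway. The median changes of these lists in D against C lay between 0.01 and 0.33, beside -0.01 for all tested probes.

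The nearest to the threshold was P4ha2, a subunit of the prolyl hydroxylase that stabilises the collagen triple helix. It measured 11.11, 11.33 and 11.19 in C and 10.59, 10.47 and 10.66 in D, and 11.37, 11.36 and 11.33 in C + P and 10.91, 10.41 and 10.48 in D + P. All 6 diabetic arrays lay below all 6 others, and the averaged change was -0.70 ± 0.11 (adjusted p = 0.0570 by limma). Ctgf, a matricellular target of TGF-beta, measured 10.30, 10.36 and 10.30 in C and 12.76, 12.19 and 11.45 in D, a change of 1.82 ± 0.37 (adjusted p = 0.221 by limma). Mmp12, macrophage elastase, measured 5.79, 5.20 and 5.52 in C and 6.13, 6.57 and 6.58 in D, a change of 0.92 ± 0.19 (adjusted p = 0.223 by limma). The log2 of the summed linear signal of 6 macrophage markers, mostly set by Lyz2, was lower in diabetic groups, at 13.66 to 14.04 in D and 13.68 to 13.84 in D + P, than in C (14.04 to 14.25) and C + P (14.09 to 14.75). In whole heart muscle, fewer cells of a type and less RNA per cell cannot be told apart, and a part of macrophage content in these values was not tested.

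Other genes with the smallest unadjusted p in their lists had larger adjusted values by limma. Adamts4, an aggrecanase, measured 3.54, 3.72 and 5.27 in C and 6.63, 6.12 and 5.22 in C + P (adjusted p = 0.732), and since only 1 of the 3 C values was well above background, no size of change is given. Plaur, the urokinase receptor, had a log2 change of 0.71 ± 0.19 in C + P against C (adjusted p = 0.822), and the change of Eln, elastin, was 1.01 ± 0.34 (adjusted p = 1.00). For Loxl3, a further lysyl oxidase-like enzyme, no change is given, since its probe stood well above background on a single array (in C). Bmp1, the procollagen C-proteinase, had a log2 change of 0.48 ± 0.15 with pargyline on average (adjusted p = 0.330). Tgfbr1, a TGF-beta receptor, had a log2 change of 0.50 ± 0.25 in D against C (adjusted p = 0.489). For the interaction, Adamts7 stood at 0.98 ± 0.25 (adjusted p = 0.565) and Mmp19 at -0.53 ± 0.25 (adjusted p = 0.711).

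**Figure D4:**
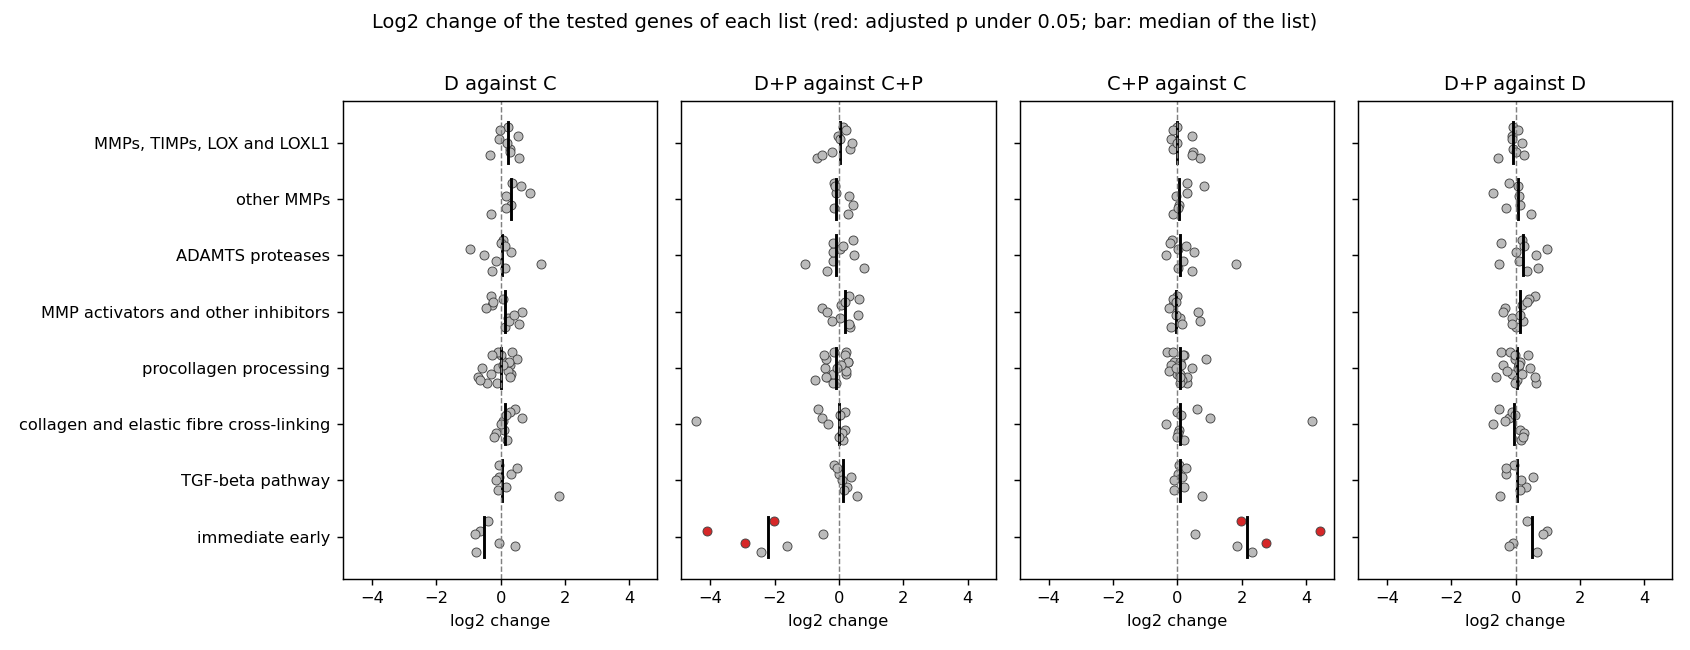
Log2 change (x axis) of every tested gene of each list (y axis), with 1 point per gene, red where the adjusted p was under 0.05, and a bar at the median of the list, in the 4 pairwise comparisons. The red points are Fos, Fosb and Ier2, which appear in the second and the third panel, while the point at 4.17 in the cross-linking list is Fmod, read high on a single array.

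Immediate early genes, which encode transcription factors switched on within minutes of a stimulus or of tissue handling, were the listed genes that passed the test. When C + P was set against C, 3 of 6 rose (Fos, Fosb and Ier2), and the same 3 fell when D + P was set against C + P, 2 comparisons that share the C + P arrays. In both comparisons the call of Ier2 held without each array in turn, whereas that of Fos was lost on leaving out C + P 1, C + P 2 or C + P 3, and that of Fosb on leaving out C + P 2 or C + P 3, among others. In each of the averaged comparisons 2 of the 6 passed (Fos and Ier2). There the call of Ier2 held without each array in turn, whereas that of Fos for diabetes held only without C 1, D 3 or D + P 1, and for pargyline it was lost without C 2, C + P 2, C + P 3 or any 1 of the D + P arrays. With the slide column as a block, the calls of Fos and Fosb were lost in all these comparisons and that of Ier2 in the averaged ones. Fos, a subunit of the transcription factor AP-1, measured 3.76, 4.99 and 5.59 in C, 3.23, 4.61 and 4.63 in D, and 5.26, 4.75 and 5.34 in D + P, and its mean in C + P was 9.20 ± 0.23 (SD, n = 3), above all other arrays. The probe was well above background on all 3 C + P arrays, on 1 of 3 C arrays and on no D or D + P array, so the size of the difference depends on the background correction. The change in C + P against C was 4.42 ± 0.47 (adjusted p = 0.0109 by limma) and 2.66 with normexp background correction (adjusted p = 1.65e-05 by limma). The C + P group therefore stood apart in these genes in the same comparison in which Timp1 was highest, and whether the 2 values are linked was not tested.

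The Timp1 promoter is shown for this reason, from the RefSeq table of build GRCm38.p6, which held 6 of the 10 genes. It is chrX:20869916-20870165 on the plus strand, the 250 bases before the annotated start.
Timp1 promoter: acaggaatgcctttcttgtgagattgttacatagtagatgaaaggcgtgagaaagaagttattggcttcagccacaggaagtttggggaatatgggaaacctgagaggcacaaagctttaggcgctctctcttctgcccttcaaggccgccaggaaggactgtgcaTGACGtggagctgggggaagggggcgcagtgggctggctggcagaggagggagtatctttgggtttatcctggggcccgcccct
Capitals mark a match to TGACG, the core of the cyclic AMP response element, whose first base lies 84 bases before the start. This motif, searched on both strands, was present in 17.8% of all 32851 promoter windows of the same length. The AP-1 motif TGANTCA, which contains no TGACG, had no match in this window or in those of Mmp14, Mmp15, Timp2, Timp3 and Timp4, and was present in 6.75% of all windows. Other forms of either motif and bases outside these windows were not searched. Whether any factor binds the Timp1 promoter or acts on Timp1 in these hearts was not tested.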

How the data were processed

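Total RNA (200 ng per heart) was labelled with Cy3 and hybridised to 1-colour Agilent mouse arrays, 1 mouse per array. Each deposited scanner file gives a linear intensity per spot, after Feature Extraction had subtracted background and removed trends within the array. The file headers name version 12.0.0.7, which is not the version in the study's methods, and genome build mm9. The authors' own table gives quantile-normalised linear intensity for 47757 spots and was used as an alternative.

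Here the deposited intensity was converted to log2 and quantile normalised over the 59305 non-control spots of each of the 12 arrays, with outlier spots set to missing (40 values among tested probes, none of these genes). Spots were averaged per probe, and probes entered the test where the positive-and-significant flag was set on 50% or more of each group's arrays. limma 3.58.1 in R 4.3.3 fitted 1 mean per group, with 8 residual and 2.62 prior degrees of freedom, and p-values were Benjamini-Hochberg adjusted over all tested probes with a threshold of 0.05. Intervals are 95%. Protease minus inhibitor differences used two-sided exact permutation tests. The fit was tested on simulated data. Array number and signal limit the precision.

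The 10 genes, the lists and the rule for named genes (genes past the threshold, otherwise the 2 with the smallest p per list, and array values where any unadjusted p was under 0.05 or the spread was large) were chosen with earlier results of these data known. Gene names are those of the files; the RefSeq table held the accessions of 15 of 17 probes. Exon annotation of mm9 was not used here. Alternatives were other normalisations and filters, array weights, the methods' t-test, blocks and left-out arrays. One result for a single listed gene is not reported here.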

Additional observations from a re-analysis of the deposited data

How the results depend on the processing

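Across the alternatives, the count of called probes among the 10 genes remained 0 in 5 of the 7 comparisons, and it left 0 in 2 comparisons under array weights alone. With array weights it was 1 in D against C (Loxl1, 0.57, adjusted p = 0.0309 by limma) and 2 in C + P against C (Timp1, 0.51, adjusted p = 0.0133, and probe 3 of Timp4, -1.89, adjusted p = 0.0112). The weights ran from 0.202 for D 1 to 9.47 for C + P 2, the estimate stopped short of its convergence tolerance, and the calls over all probes rose from 2 to 2936 and from 10 to 2259. The cause was not tested. Leaving out each array in turn gave counts of 0 to 0 in all comparisons. With the replicate block the count was 0 in each comparison, so it changed no call among these genes. Of the immediate early genes, Fosb was not called under it in C + P against C or D + P against C + P, nor Fos for diabetes averaged over pargyline. Replicate numbers did not pair the arrays: deviations of same-numbered arrays correlated between -0.20 and 0.20, and 5 of 12 arrays correlated best with their own number. The slide could be blocked only for diabetes averaged over pargyline, where the count was 0; the comparisons of pargyline could not be fitted with it.

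Over all probes, the calls ranged over the alternatives from 0 to 2936 in D against C (2 as reported), 1 to 396 in D + P against C + P (14), 3 to 2256 for diabetes averaged over pargyline (33), 1 to 2259 in C + P against C (10), 0 to 70 in D + P against D (0), 0 to 1517 for pargyline averaged over diabetes (17) and 0 to 73 for the interaction (2), with every highest count from array weights. Of 2156 recomputed changes of single probes, 164 had another sign than reported, none of them called in either setting. The protease minus inhibitor differences ranged from -0.23 to 0.10 for Mmp2 and Timp2, 0.09 to 0.30 for Mmp14 and Timp2, -0.06 to 0.41 for Mmp9 and Timp1, and 0.21 to 0.58 for Mmp2 and Timp4, with no exact permutation p under 0.085. The mean of all tested probes could not be used for Mmp9, which had none. Among the lists, chosen after seeing the data as an added check, P4ha2 passed with diabetes averaged over pargyline under 5 alternatives, including a fit without D + P 1 (-0.77, adjusted p = 0.0231 by limma), and the 3 called immediate early genes in C + P against C ranged from 0 (the methods' t-test) to 6. Ier2 was called there in every limma fit, whereas Fos lost its call on leaving out C 2 or any 1 of the C + P arrays and Fosb on leaving out any 1 array of C, C + P or D, or D + P 3. In D + P against C + P, Ier2 was again called in every limma fit, while Fos lost its call on leaving out any 1 of the C + P arrays, D + P 2 or D + P 3, and Fosb on leaving out any 1 of 9 arrays. With array weights each of the other lists gave at most 3 called genes in any 1 comparison, where it had none as reported.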

Other observations

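Fmod, which encodes fibromodulin, a proteoglycan that binds collagen fibrils and LOX, gave a log2 signal of 16.91 on array C + P 2 and 3.14 to 4.19 on the other 11 arrays, from 1 probe on 1 spot. The probe was well above background on C + P 2 alone. With array weights, in which C + P 2 had the largest weight, Fmod was called in C + P against C at 11.93 (adjusted p = 0.0116 by limma). Lox was not high on the same array: it measured 5.36 on C + P 2 and 7.30 on C + P 1. Fmod was named after its values were seen.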
